A study of Mus musculus with 11 samples.

Results

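The lysosome genes are a set of 43 mouse genes chosen by symbol for the lysosomal role of their products: soluble hydrolases, their activators, membrane proteins, subunits of the proton pump, and the transcription factors Tfeb and Tfe3. All 43 were found among the 14700 genes of the deposited count table, and all 43 were among the 14478 genes with enough reads to be tested. They comprise 10 lysosomal proteases, 11 glycosidases, 3 sulfatases, 4 lipid hydrolases, 3 activator and granulin precursors, 5 membrane proteins, 5 proton pump genes and 2 transcription factors. RNA came from the lungs of C57BL/6 mice aged 8 weeks, collected on day 3 after instillation into the trachea. The 6 control libraries are from mice given saline solution, and the 5 treated ones from mice given bleomycin, a DNA-damaging drug used to model lung fibrosis, at 3 U/kg; both were given in 50 μL. No transgene, knockout or further treatment is given for either group, so the animals shared the C57BL/6 background and differed in the labels by the instilled agent. Polyadenylated RNA was sequenced, and the series as a whole asked about autophagy and epithelial death in lung fibrosis.

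Lysosomes are the acidic compartments in which cells break down proteins, glycans, lipids and cargo delivered by endocytosis, phagocytosis and autophagy. A vacuolar proton pump keeps them acidic, which the hydrolases need. TFEB and TFE3 are related basic helix-loop-helix factors that move to the nucleus under starvation or lysosomal stress and bind an E-box with the core CACGTG, found in the promoters of many lysosomal genes; in lung, macrophages are rich in lysosomes, and alveolar type 2 cells store surfactant in lysosome-related lamellar bodies.

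Promoters of a few members are shown here because they hold the letters of this E-box or belong to the genes that passed the test below. Windows of 300 bases, from 250 before the transcription start to 50 after it, were taken from RefSeq's table on GRCm38.p6, which is an earlier build than the GRCm39 used for counting; 38 of the 43 members had a window. CACGTG reads the same on both strands. It was present in 12 of these 38 members, or 31.6%, against 8.09% of the 27025 genes with a window, 11.0% of the 11423 tested genes with one, and 7.15% of all 32851 windows. The longer form TCACGTGA, which contains CACGTG and is also the same on both strands, was present in 5 members (Ctsa, Ctsd, Gla, Mcoln1 and Atp6v1a), or 13.2%, against 1.12% of genes with a window and 1.96% of tested genes with one. The full 10-base palindrome of the TFEB consensus, TCACGTGA with a G before and a C after it, was present in 0 of the 38, in 0.370% of genes and in 0.683% of tested genes. These shares describe the windows, and the difference was not tested. Below are stretches upstream of the start, written 5′ to 3′ along the gene, with every CACGTG in capitals.
Lamp1 (chr8:13159065-13159160, plus strand): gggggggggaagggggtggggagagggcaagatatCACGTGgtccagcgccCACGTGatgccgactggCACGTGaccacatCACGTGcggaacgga
Mcoln1 (chr8:3500438-3500518, plus strand): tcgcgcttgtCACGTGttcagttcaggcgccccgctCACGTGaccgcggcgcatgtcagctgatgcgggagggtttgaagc
Ctsd (chr7:142387862-142387961, minus strand): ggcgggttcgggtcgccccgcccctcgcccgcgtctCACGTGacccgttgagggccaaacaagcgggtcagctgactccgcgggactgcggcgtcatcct
Gla (chrX:134601156-134601255, minus strand): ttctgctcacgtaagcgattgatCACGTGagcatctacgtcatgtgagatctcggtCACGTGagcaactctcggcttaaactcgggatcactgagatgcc
Atp6v1a (chr16:44139327-44139426, minus strand): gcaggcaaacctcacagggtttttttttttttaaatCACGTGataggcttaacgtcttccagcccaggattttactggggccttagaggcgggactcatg

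Lamp1, which encodes an abundant glycoprotein of the lysosomal membrane, had 4 copies, beginning 61, 45, 28 and 15 bases before the start. Both copies in Gla, the gene of alpha-galactosidase A, had the longer form. None of the 4 members that passed the test in bleomycin had CACGTG anywhere in its 300-base window, and the 100 bases before the start of each are therefore all in lower case.
Atp6v0a1 (chr11:101010298-101010397, plus strand): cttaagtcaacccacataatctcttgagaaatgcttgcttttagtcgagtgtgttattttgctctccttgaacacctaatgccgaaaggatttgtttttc
Gm2a (chr11:55097885-55097984, plus strand): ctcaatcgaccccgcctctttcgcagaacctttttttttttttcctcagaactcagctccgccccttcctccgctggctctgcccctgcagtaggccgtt
Ppt1 (chr4:122836127-122836226, plus strand): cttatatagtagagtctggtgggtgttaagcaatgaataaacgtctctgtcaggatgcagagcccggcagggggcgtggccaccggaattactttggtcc
Ctss (chr3:95526686-95526785, plus strand): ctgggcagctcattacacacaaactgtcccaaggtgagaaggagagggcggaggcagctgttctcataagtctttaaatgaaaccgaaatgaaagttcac
A match or its absence describes the letters of these windows and says nothing about binding of a factor.

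**Figure D1:**
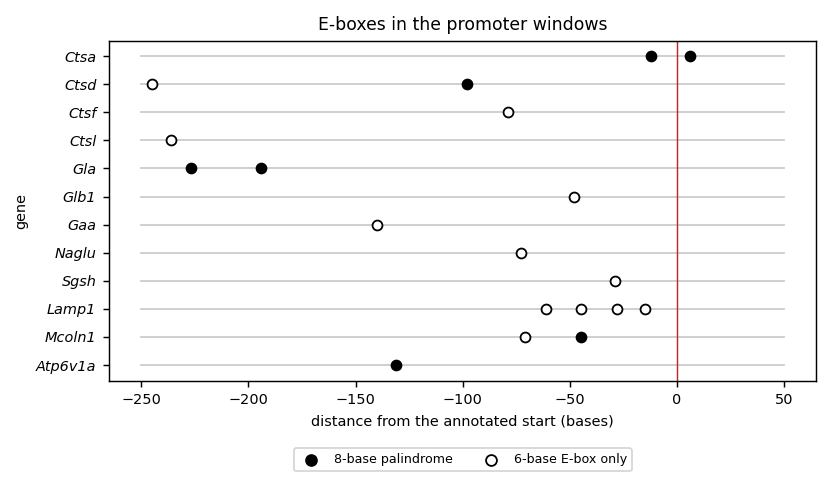
Positions of the E-box core in the promoter windows of the 12 lysosome genes that have it, as the distance in bases of its first base from the annotated start (x axis), with 1 row per gene; filled points are the 8-base form and open points the 6-base core alone. Lamp1 shows 4 copies, all within 61 bases of the start.

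The libraries held 13226339 to 19009284 counts assigned to genes. Lung markers were present in both groups, with Sftpc, the surfactant protein C gene of alveolar type 2 cells, at means of 14988 CPM (read counts scaled to a common library size with edgeR's TMM factors) in saline and 16129 CPM in bleomycin. The saline group was not homogeneous. Saline 2 and 3 stood apart by markers of monocytes and recruited macrophages: all 12 markers of that list were tested, and their summed level was 6782 and 5085 CPM in these libraries, against 811 to 1497 CPM over the 4 further saline libraries and 769 to 1204 CPM in bleomycin. Saline 1 and 4 stood apart by Scgb1a1, the club cell secretoglobin, which took 11.5% and 12.1% of their counts against 1.77% to 8.24% elsewhere. Results are therefore given with and without each pair. The labels do not state that each library is a separate animal, and the spread that the tests use is that between libraries, which may be technical.

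In lungs given bleomycin, 1 lysosome gene rose and 3 fell, and the other 39 did not pass the test. The proton pump subunit Atp6v0a1 rose by 2.37-fold; Ctss, a cysteine protease of antigen-presenting cells, fell 6.90-fold, the ganglioside activator Gm2a 2.40-fold, and the thioesterase Ppt1 1.94-fold. The fall of Ctss did not pass without saline 2 and 3, and the other 3 calls did. Passing means an adjusted p below 0.05 in edgeR's quasi-likelihood test with Benjamini-Hochberg adjustment over all 14478 genes. Of all genes, 1496 passed (10.3%), with 671 higher (4.63%) and 825 lower (5.7%) in bleomycin, so 1 rise and 3 falls among 43 members are close to those shares. The log2 fold change of bleomycin over saline was negative in 32 members and positive in 11, with a median of -0.32, beside -0.04 over all genes tested. The 5 bleomycin libraries lay wholly above the 6 saline libraries for Atp6v0a1 and wholly below them for Hexa, Ppt1 and Gm2a; over all genes, bleomycin lay wholly above in 3.99% and wholly below in 4.41%, together 8.41%. In whole lung, fewer cells of a type and less RNA per cell cannot be told apart.

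**Figure D2:**
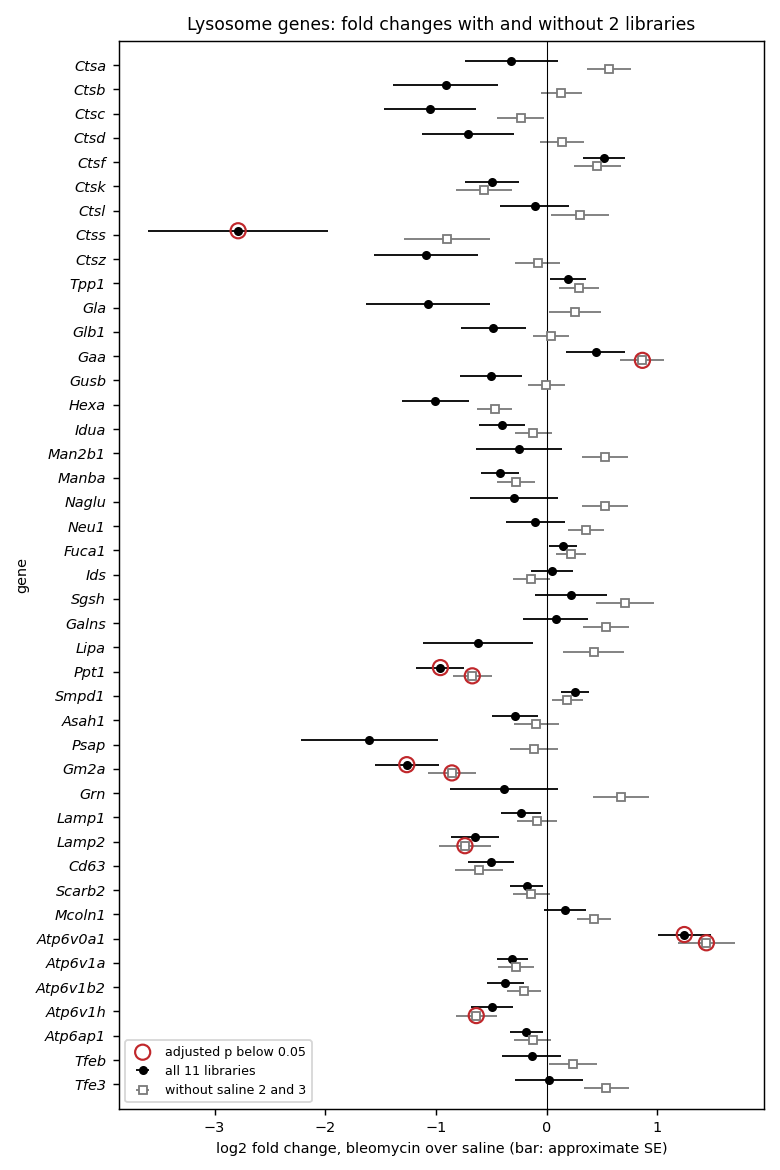
Log2 fold change of bleomycin over saline for each of the 43 lysosome genes (x axis, ± standard error), grouped by role, with all libraries and without saline 2 and 3. Atp6v0a1 lies to the right of 0 in both fits, and Ppt1 and Gm2a to the left in both.

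Saline 2 and 3 stood apart for the summed level of the set. The members together took 2.55% of all counts in saline 2 (95% Wilson interval 2.54% to 2.56%, counting error only) and 1.98% in saline 3 (1.97% to 1.99%). The other 9 libraries, from both groups, lay between 0.582% and 0.866%. For 23 of the 43 members (53.5%), saline 2 and 3 were the highest pair of the 11 libraries, which held for 15.2% of all genes tested. By role these were 6 of 10 proteases, 8 of 11 glycosidases, 2 of 4 lipid hydrolases and 3 of 3 activator and granulin precursors. They also included 2 of 2 transcription factors, but only 1 of 5 membrane proteins, 1 of 5 proton pump genes and 0 of 3 sulfatases. For the sulfatases Sgsh and Galns, saline 2 and 3 were the 2 highest saline libraries, but bleomycin 5 lay above saline 3. In 11 of the 12 monocyte and macrophage markers the same pair was highest, and none of the 12 had a mean over the libraries below 1 CPM; the part of these cells in the members' levels was not tested. Among the 6 fibroblast markers the pair was highest in 4, with sums of 5056 and 3503 CPM where the 4 further saline libraries had 831 to 1123 CPM and bleomycin 632 to 2577 CPM. Markers of resident alveolar macrophages did not set this pair apart: their 10 genes summed to 450.1 and 403 CPM there, within the 315 to 713 CPM of all saline libraries and below the 525 to 1326 CPM of bleomycin. That sum was mostly Chil3 (means of 220.1 CPM in saline and 492 CPM in bleomycin) and Car4 (104 and 189 CPM); none of the 10 passed, and the log2 fold changes of Marco, Ear2, Ear1, Fabp1, Krt79, Cidec and Plet1 were negative. Saline 2 and 3 were the lowest saline libraries for the summed markers of alveolar type 2 cells (10003 and 15029.8 CPM, against 20575 to 38895 CPM), endothelial cells (658 and 893, against 1113 to 2496 CPM), smooth muscle cells (134 and 166, against 390.5 to 895 CPM) and club cells (25707 and 28181, against 71371 to 166982 CPM).

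**Figure D3:**
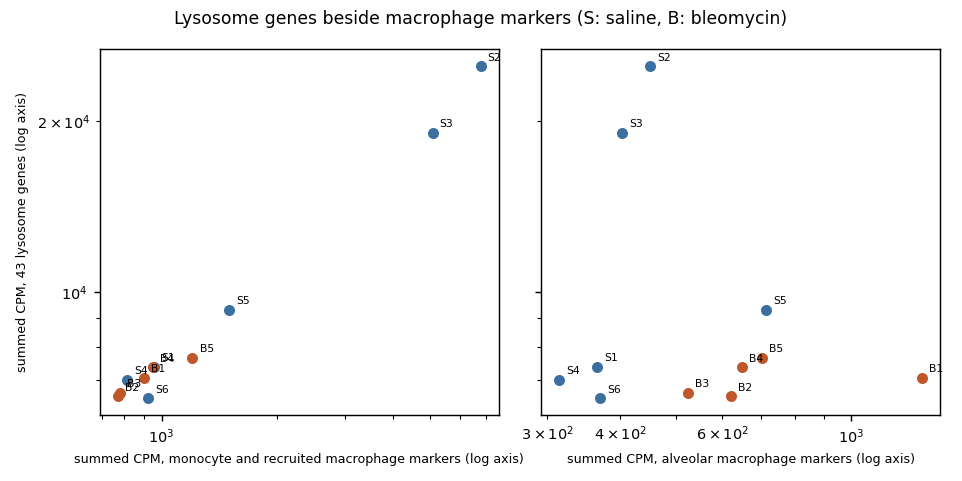
Summed level of the 43 lysosome genes (y axes, CPM, log scale) against the summed level of the 12 monocyte and recruited macrophage markers (left) and of the 10 alveolar macrophage markers (right; x axes, CPM, log scale), 1 point per library (S, saline; B, bleomycin, with the replicate number). Saline 2 and 3 lie apart from the other 9 libraries on the left by both sums and on the right by the lysosome sum alone.

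Psap, Ctss and Ctsb made up 14160.3 of the 24993 CPM of the set in saline 2, or 56.7%, and 53.6% in saline 3, against 20.7% to 29.4% in the other libraries. Without these 3 genes, the remaining 40 members still summed to 10833 and 8849 CPM in saline 2 and 3, above the 4596 to 6649 CPM of the other saline libraries and the 4921 to 5632 CPM of bleomycin. The saline libraries varied more than the bleomycin libraries: the median member had an SD of 0.588 on the log2 scale in saline and 0.265 in bleomycin, beside 0.425 and 0.303 over all genes.

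Leaving out saline 2 and 3 moved the median of the members from -0.32 to 0.04 and the number with a negative log2 fold change from 32 to 21. In that fit 2 members rose, Atp6v0a1 and Gaa, and 4 fell, Ppt1, Gm2a, Lamp2 and Atp6v1h; 19.2% of all genes passed in it, 9.22% higher and 9.97% lower. By role, the median went from -0.60 to 0.14 for the proteases, from -0.40 to 0.22 for the glycosidases, from -0.45 to 0.05 for the lipid hydrolases, from 0.08 to 0.54 for the sulfatases and from -0.06 to 0.39 for the transcription factors. It stayed below 0 for the activator and granulin precursors (-1.26 and -0.12), the membrane proteins (-0.23 and -0.14) and the proton pump (-0.31 and -0.20). Leaving out saline 1 and 4 gave 1 member that rose, Atp6v0a1, and 5 that fell, Ctss, Hexa, Ppt1, Psap and Gm2a, with a median of -0.39, where 6.04% of all genes passed, 1.97% higher and 4.07% lower. Atp6v0a1, Ppt1 and Gm2a passed in all 3 of these fits.

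Other ways of testing moved the number of members called and that of all genes. DESeq2 called 1 member higher and 6 lower, where 19.9% of all genes passed (8.6% higher and 11.3% lower). A correction for GC content in edgeR left 1 higher and 2 lower (Hexa and Gm2a), where 6.67% of all genes passed (2.58% higher and 4.1% lower). On log2(FPKM + 1), limma called 2 members higher and 0 lower, with 9.46% of all genes passing (7.06% higher and 2.41% lower), and on log2(TPM + 1) 1 higher and 0 lower, with 7.58% passing (7.01% higher and 0.572% lower). Atp6v0a1 was higher in all 4, and the falls of Ctss and Ppt1 were called by DESeq2 alone of the 4. The TPM scale moved the median of all genes to 0.39, and the members' median, at 0.24, lay 0.14 below it; 10 members were then negative.

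**Figure D4:**
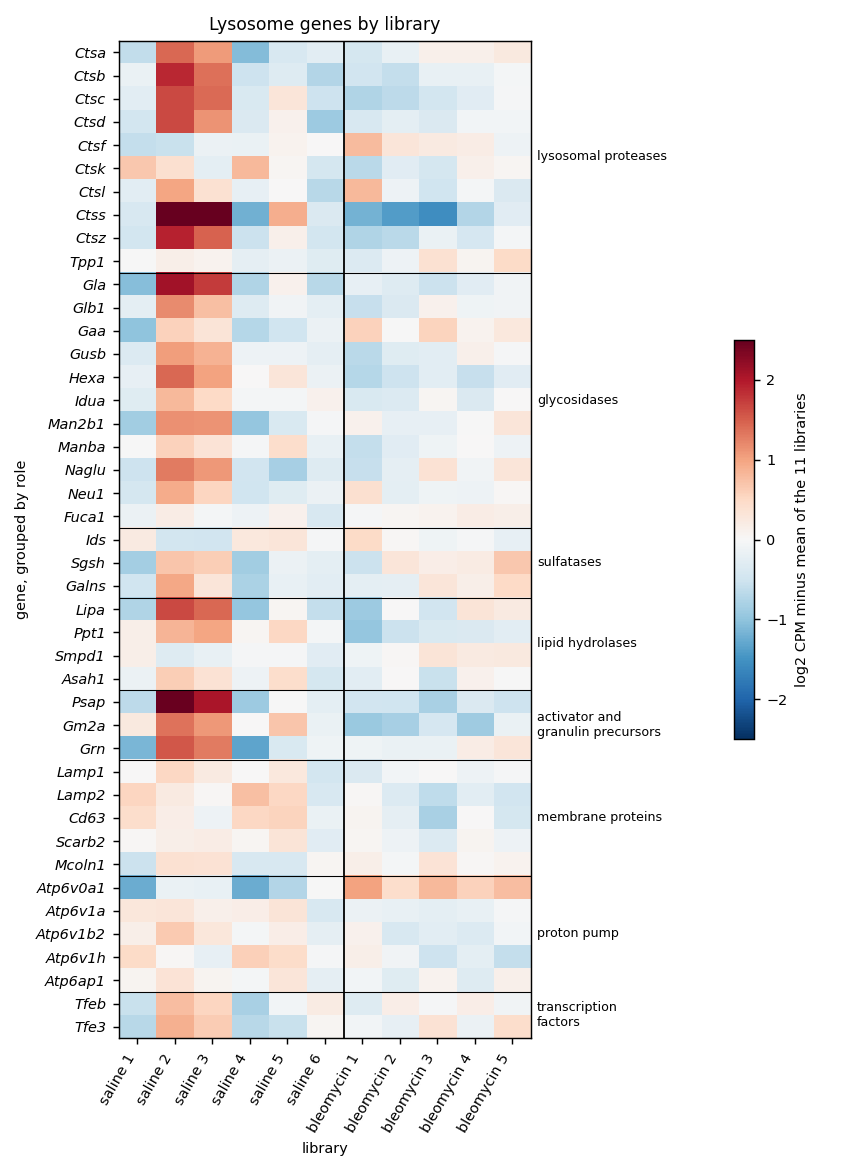
Levels of the 43 lysosome genes (rows, grouped by role) in the 11 libraries (columns), as log2 CPM relative to the gene's mean over the libraries (colour scale). Saline 2 and 3 show the highest values for most proteases, glycosidases and activators, and Atp6v0a1 is the row in which all bleomycin libraries are above all saline libraries.

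The master regulators of the set did not pass the test. Tfeb had 10.9, 20.1 and 32.6 CPM as its lowest, median and highest saline level and 15.2, 21.2, 18.7, 21.4 and 17.8 CPM in bleomycin 1 to 5, and the groups overlapped. Its log2 fold change was -0.13 ± 0.27 (SE), adjusted p = 0.763. Tfe3 had 37.0, 51.5 and 111 CPM in saline by the same summary and 57.4, 52.4, 77.0, 53.9 and 81.4 CPM in bleomycin, again with overlap, and a change of 0.02 ± 0.31, adjusted p = 0.971 on that scale. Both were highest in saline 2 and 3, and their log2 fold changes were 0.24 and 0.54 without that pair and -0.39 and -0.23 without saline 1 and 4, none of which passed. Both were low in mRNA level per length, with mean FPKM (fragments scaled to transcript length and depth) over all libraries of 1.36 for Tfeb and 1.72 for Tfe3; their activity is governed largely by location in the cell, which mRNA does not show.

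Among the 5 proton pump genes, Atp6v0a1 rose, and the other 4 had log2 fold changes below 0 that did not pass and that were above 0 on the TPM scale. Atp6v0a1 (ENSMUSG00000019302) encodes an isoform of the membrane-embedded a subunit, which lines the proton path and helps to direct the pump to its compartment. Its levels in saline 1 to 6 were 36.8, 77.5, 76.8, 37.1, 52.7 and 86.8 CPM, and in bleomycin 1 to 5 176, 118, 153, 130.3 and 149 CPM. Every bleomycin library was above every saline library, including saline 2 and 3, which were not set apart for this gene. The means were 61.3 ± 22.0 CPM (SD, n = 6) and 145 ± 22.4 CPM (SD, n = 5), a log2 fold change of 1.24 ± 0.24 with an adjusted p of 0.0113. The value without saline 2 and 3 was 1.44, adjusted p = 0.00827. Leaving out saline 1 and 4 gave 1.00, adjusted p = 0.0139. It stayed past the threshold when each of the 11 libraries was left out in turn, with a highest adjusted p of 0.0316. Beside it, the 5 alveolar type 1 cell markers summed to 821 to 2088 CPM in saline and 2511 to 3372 CPM in bleomycin, also without overlap. Ager and Aqp5 of that list, Sftpb and Abca3 of the 5 type 2 cell markers and Vwf of the 5 endothelial markers rose. The other markers of these lists did not pass, and the log2 fold change of Sftpa1 was negative (-0.19). Summed type 2 markers overlapped, at 10003 to 38895 CPM in saline and 19196 to 29985 CPM in bleomycin. Endothelial sums overlapped too, at 658 to 2496 and 1951 to 2605 CPM. The part of these cells in the level of Atp6v0a1 was not tested.

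Atp6ap1, an accessory subunit needed for assembly and the most abundant pump member per length, had 228, 279.8 and 338 CPM in saline (lowest, median, highest) and 254, 216, 284, 214 and 292 CPM in bleomycin. The groups overlapped, with a change of -0.18 ± 0.15, adjusted p = 0.438 on the log2 scale. For the catalytic subunit Atp6v1a, the B subunit Atp6v1b2 and the regulatory H subunit Atp6v1h of the cytosolic sector, log2 fold changes were -0.31, -0.37 and -0.49, none past the threshold. Only Atp6v1h of these fell once saline 2 and 3 were left out (-0.64, adjusted p = 0.0366).

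Ctss (ENSMUSG00000038642), which encodes cathepsin S, a protease that trims the invariant chain in antigen-presenting cells, had the lowest log2 fold change of the set, at -2.79 ± 0.81, adjusted p = 0.0488. Its levels in saline 1 to 6 were 269, 3690.2, 2542, 155, 671 and 276 CPM, and in bleomycin 1 to 5 156, 136, 121, 214 and 290.5 CPM. Saline 2 and 3 stood far above all other libraries, and the other 4 saline libraries overlapped with bleomycin. The means were 1267 ± 1488 CPM (SD, n = 6) and 184 ± 69.5 CPM (SD, n = 5). The call was lost without that pair, at -0.90, adjusted p = 0.116. Leaving out saline 1 and 4 gave -3.27, adjusted p = 0.0197. It was also lost on leaving out saline 2, 3 or 5 or any 1 of the 5 bleomycin libraries, with a highest adjusted p of 0.113. Beside it, 3 of the 6 dendritic cell markers fell. Their summed levels were 101 to 127 CPM in saline and 27.1 to 67.5 CPM in bleomycin. That sum did not set saline 2 and 3 apart: saline 2 was the lowest saline library, and saline 3 had 118 CPM. The 12 monocyte and macrophage markers, of which 1 fell, summed to 6782 CPM in saline 2 and 5085 CPM in saline 3. Saline 1, 4, 5 and 6 spanned 811 to 1497 CPM for these 12, and bleomycin 769 to 1204 CPM. The part of either cell type in the level of Ctss was not tested.

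The other proteases did not pass. Ctsc, dipeptidyl peptidase I, which activates granule serine proteases, had 252, 371 and 1126 CPM in saline (lowest, median, highest) and 213, 228, 261, 296 and 352 CPM in bleomycin, a change of -1.05 ± 0.41, adjusted p = 0.115 on the log2 scale. Its saline 2 and 3 values were 1126 and 965 CPM, and without them the log2 fold change was -0.24. Ctsz, a carboxypeptidase, had 179, 235 and 974 CPM in saline and 153, 163, 229, 193 and 250.5 CPM in bleomycin, with -1.09 ± 0.47, adjusted p = 0.142, and -0.08 without the pair. Ctsb and Ctsd, the main cysteine and aspartic endopeptidases, had log2 fold changes of -0.91 and -0.71, which became 0.13 and 0.14 without saline 2 and 3. The collagen-cleaving Ctsk was at -0.49, the endopeptidase Ctsl at -0.11 and the carboxypeptidase Ctsa, also a protector of other enzymes, at -0.32. Positive values were seen for Ctsf (0.52, adjusted p = 0.0981) and the tripeptidyl peptidase Tpp1 (0.19).

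**Figure D5:**
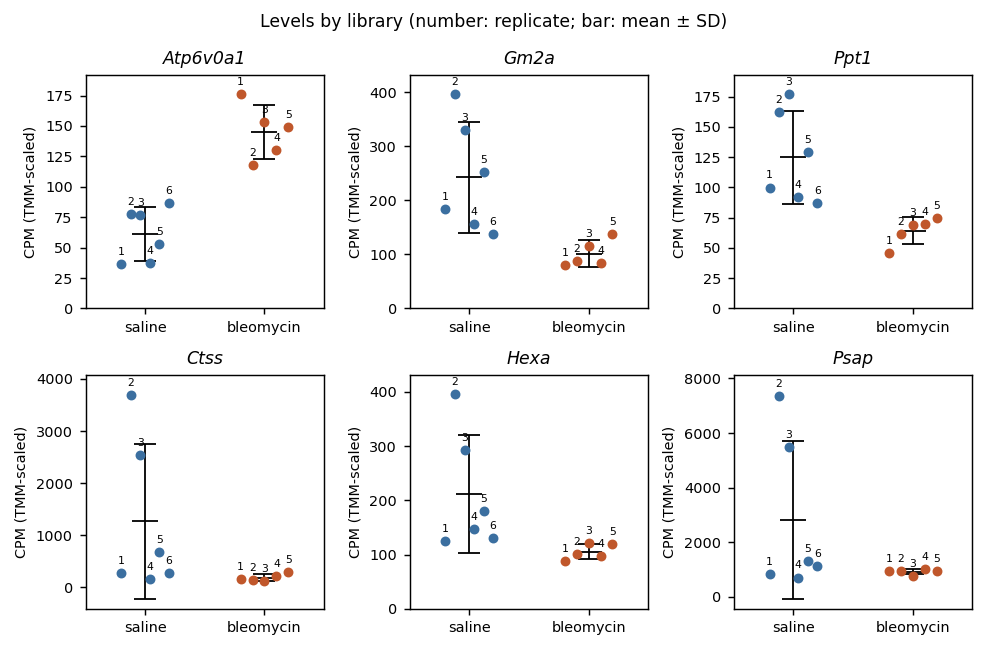
Levels of 6 lysosome genes in each library (y axes, CPM, linear scale), saline (n = 6) and bleomycin (n = 5) side by side, numbered by replicate, with bars for the mean ± SD. For Ctss, Psap, Hexa, Gm2a and Ppt1 saline 2 and 3 lie above the rest, and for Atp6v0a1 all bleomycin points lie above the saline points.

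None of the 11 glycosidases passed. Hexa, the alpha subunit of beta-hexosaminidase, whose loss causes Tay-Sachs disease in humans, had the highest level per length of the group, at a mean of 81.9 FPKM. Its saline levels were 126, 163 and 395 CPM (lowest, median, highest), and its bleomycin levels were 88.6, 101, 121, 97.2 and 119 CPM, all below saline. With all libraries the change on the log2 scale was -1.01 ± 0.30, adjusted p = 0.0526. It was -0.47, adjusted p = 0.057 once saline 2 and 3 were left out and -1.22, adjusted p = 0.036 once saline 1 and 4 were. Gla had 8.75, 15.6 and 78.5 CPM in saline and 16.0, 14.6, 12.6, 15.2 and 17.3 CPM in bleomycin, with -1.07 ± 0.56, adjusted p = 0.217, and its direction turned without saline 2 and 3 (0.25). Gaa, the acid alpha-glucosidase that degrades glycogen, was at 0.44 (adjusted p = 0.282) with all libraries and rose without saline 2 and 3 (0.87, adjusted p = 0.0177). The remaining 8, Glb1, Gusb, Idua, Man2b1, Manba, Naglu, Neu1 and Fuca1, lay between -0.50 (Gusb) and 0.15 (Fuca1).

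The 3 sulfatases had positive log2 fold changes that did not pass, of which Galns and Sgsh were negative without saline 1 and 4 (-0.14 and -0.05) and Ids without saline 2 and 3 (-0.14): 0.05 for Ids, iduronate sulfatase, 0.08 for Galns and 0.22 for Sgsh. Ids had 102, 151 and 173 CPM in saline (lowest, median, highest) and 197, 145, 131, 139 and 122 CPM in bleomycin, with adjusted p = 0.875. It was the one member for which saline 2 and 3 were the 2 lowest of the 6 saline libraries.

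Ppt1 (ENSMUSG00000028657) encodes palmitoyl-protein thioesterase, which strips palmitate from proteins during their breakdown, and it fell. Its saline levels were 99.9, 163, 177, 92.2, 129 and 87.2 CPM in saline 1 to 6 and 45.8, 61.7, 68.9, 69.7 and 74.5 CPM in bleomycin 1 to 5, so that every bleomycin library was below every saline library. The means were 125 ± 38.2 CPM (SD, n = 6) and 64.1 ± 11.2 CPM (SD, n = 5), and the change on the log2 scale was -0.96 ± 0.22, adjusted p = 0.0209. Leaving out saline 2 and 3 gave -0.67, adjusted p = 0.0256, and saline 1 and 4 -1.09, adjusted p = 0.0223. Leaving out bleomycin 2 ended the call (0.0561 as adjusted p), as did total-count scaling (0.0722); it was also lost with a correction for GC content (0.0603), and Ppt1 overlaps Cap1 on GRCm38.p6, so that, the strand setting of the counting not being given, reads of the 2 genes may not be told apart. The same holds for Hexa, Asah1, Ctsa, Ctsb, Ctsz, Galns, Glb1, Idua, Sgsh and Atp6v1b2, each of which overlaps another tested coding gene on that build.

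Asah1, acid ceramidase, had 131, 194 and 271 CPM in saline (lowest, median, highest) and 147, 177, 119.9, 191 and 176 CPM in bleomycin, with -0.29 ± 0.21, adjusted p = 0.367. Lipa, the acid lipase of cholesteryl esters, was at -0.62 and Smpd1, acid sphingomyelinase, at 0.26, neither past the threshold.

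Gm2a (ENSMUSG00000000594) encodes the activator that presents GM2 ganglioside to beta-hexosaminidase, and it fell. Its levels were 185, 396, 329, 157, 252 and 139 CPM in saline 1 to 6 and 81.2, 86.9, 116, 84.2 and 138 CPM in bleomycin 1 to 5, with no overlap, the lowest saline library (saline 6) lying just above the highest bleomycin library (bleomycin 5). The means were 243 ± 103 CPM (SD, n = 6) and 101 ± 24.8 CPM (SD, n = 5), a change of -1.26 ± 0.29, adjusted p = 0.0213 on the log2 scale. Leaving out saline 2 and 3 gave -0.86, adjusted p = 0.0244, and saline 1 and 4 -1.44, adjusted p = 0.0202. The call ended when bleomycin 2 (0.0591) or bleomycin 4 (0.0578) was left out and with total-count scaling (0.0509). Psap, the precursor of the saposins that help hydrolases reach sphingolipids, had 712, 1230.1 and 7372 CPM in saline and 959, 942, 762, 1039 and 933 CPM in bleomycin. Its saline 2 and 3 values of 7372 and 5506 CPM were far above the rest. The log2 scale change was -1.60 ± 0.62, adjusted p = 0.111, and -0.12 without that pair; it passed without saline 1 and 4 (-2.03, adjusted p = 0.0498) and with DESeq2 (0.0293). Grn, the progranulin gene, was at -0.38, and at 0.67 without the pair.

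Of the membrane proteins none passed in edgeR with all libraries. Lamp1 had 389, 584 and 769 CPM in saline (lowest, median, highest) and 419, 514, 539, 492 and 526.2 CPM in bleomycin, with -0.23 ± 0.18, adjusted p = 0.405. Lamp2, its relative that also serves chaperone-mediated autophagy, was at -0.65 ± 0.22, adjusted p = 0.0731, and fell without saline 2 and 3 (-0.74, adjusted p = 0.0482), without saline 6, and with DESeq2 on all libraries (adjusted p = 0.0234). The tetraspanin Cd63 was at -0.50, the enzyme receptor Scarb2 at -0.18 and the calcium channel Mcoln1 at 0.17.

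Compared per length, the members spanned a wide range of mRNA levels. Averaged over the 11 libraries, the highest were Ctss at 289 FPKM, Ctsz at 224, Lamp1 at 191, Ctsb at 152 and Psap at 151, and the lowest were Tfeb at 1.36, Idua at 0.994 and Sgsh at 0.862. The order differed between the groups, but the saline means of Ctss, Ctsz, Psap and Ctsb were raised by saline 2 and 3. Ctss had 3690 and 2542 CPM in that pair and at most 671 CPM in saline 1, 4, 5 and 6. For Lamp1 the corresponding values were 769, 627 and 648 CPM. The pair also enters the mean of Ctss over all 11 libraries. An order by FPKM without saline 2 and 3 was not computed. In saline (SD, n = 6) the means were 469.6 ± 568.03 FPKM for Ctss, 288 ± 249.97 FPKM for Ctsz, 214 ± 228 FPKM for Psap, 195 ± 49.6 FPKM for Lamp1 and 188 ± 168 FPKM for Ctsb, neighbours in this order differing by less than their SDs. In bleomycin (SD, n = 5) they were 187 ± 26.9 FPKM for Lamp1, 147 ± 36.8 FPKM for Ctsz, 109 ± 20.8 FPKM for Ctsb, 75.1 ± 10.4 FPKM for Psap and 73.0 ± 31.0 FPKM for Ctss, the last 2 differing by less than their SDs.

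The 12 members with CACGTG in the promoter window included none that passed, where 10.3% of all genes did, so that 0 of 12 is near the background; they had a median log2 fold change of -0.26 and a range of -1.07 to 0.52. The 26 members with a window but without the motif held the 1 that rose and the 3 that fell, with a median of -0.41. Without saline 2 and 3 the medians were 0.36 and -0.12, and 10 of the 12 and 10 of the 26 were positive. These values are a description, and no test of the difference was made.

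Beyond the set, 115 further genes of the lysosomal pathway were listed by role, of which 114 were in the table and tested. In bleomycin 1 of them rose and 15 fell, beside 4.63% and 5.7% of all genes, with a median log2 fold change of -0.25. The one that rose was Hyal1, a hyaluronan-degrading enzyme of low level, from 2.78 ± 0.978 CPM to 9.16 ± 3.72 CPM (SD, n = 6 and 5), at 1.72 ± 0.36, adjusted p = 0.015. Among other enzymes, Plbd1, a phospholipase B-like protein, fell from 118 ± 43.7 CPM to 31.7 ± 6.53 CPM (-1.90 ± 0.27, adjusted p = 0.00312), and Naaa, an acid amidase of fatty acid ethanolamides, from 194 ± 84.1 CPM to 66.3 ± 9.50 CPM (-1.55 ± 0.27, adjusted p = 0.00679). Ggh, which shortens folate polyglutamates, fell (-0.96 ± 0.18, adjusted p = 0.0089), and the carboxypeptidase Prcp with -1.16 ± 0.23, adjusted p = 0.0121. Hyal1, Plbd1, Naaa, Ggh and Prcp passed in every fit that left out 1 library, and without saline 2 and 3. With limma on log2(TPM + 1), Plbd1, Naaa, Ggh and Prcp did not pass (adjusted p = 0.0779, 0.167, 0.381 and 0.311). Hyal1 did not pass with replicate number added to the model as a block.

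Ctsw, a cathepsin of cytotoxic lymphocytes, fell with -1.68 ± 0.46, adjusted p = 0.041. Beside it, all 6 natural killer cell markers and 4 of the 5 tested T cell markers fell. Summed natural killer marker levels were 75.6 to 344 CPM in saline and 9.73 to 25.6 CPM in bleomycin. Ctsw was highest in saline 3 and 2 (24.1 and 23.1 CPM) and at 10.8 CPM in saline 5. The natural killer sum was instead lowest of saline in saline 2 and highest in saline 5. Summed T cell markers were 127.7 and 143.5 CPM in saline 2 and 3 and 39.6 to 127.7 CPM in saline 1, 4, 5 and 6. In bleomycin they were 15.2 to 30.8 CPM. The part of these cells in the level of Ctsw was not tested. The cathepsin inhibitors Cst7, which is found in leukocytes, and Cst3, a secreted one, fell (-2.37 ± 0.49, adjusted p = 0.0148 and -0.91 ± 0.22, adjusted p = 0.0266). M6pr, a receptor that carries new enzymes to lysosomes, fell with -0.83 ± 0.18, adjusted p = 0.0193, and Mcoln2, a channel of immune cells, with -2.13 ± 0.61, adjusted p = 0.0462. Of the other pump genes, Atp6v1b1, the B subunit isoform of specialised acid-secreting cells, fell with -2.40 ± 0.67, adjusted p = 0.0413 and the accessory Atp6ap2 with -0.78 ± 0.18, adjusted p = 0.0213. Atp6v1b1 was of low level, at means of 11.4 CPM in saline and 2.17 CPM in bleomycin, with a lowest library count of 7. The remaining 4 that fell were Atp6v1f, Ostm1, Lamtor4 and Lamtor5.

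Some of these calls did not pass with fewer libraries. Without saline 2 and 3, Ctsw was at -1.15, adjusted p = 0.0783 and Mcoln2 at -0.90, adjusted p = 0.107. Without saline 1 and 4, Atp6v1b1 was at -1.50, adjusted p = 0.156, while Atp6ap2 at -0.75, adjusted p = 0.0589 and Cst3 at -0.91, adjusted p = 0.0614 missed the threshold with nearly the log2 fold changes of all libraries. With 1 library left out at a time, Cst3 and Atp6ap2 were lost without bleomycin 2, 3, 4 or 5 (highest adjusted p = 0.0647 and 0.0585) and M6pr without bleomycin 2 or 4 (0.0518). Atp6v1b1 was lost without saline 1 or 4 or any bleomycin library (0.0946), Mcoln2 without saline 2 or 3 or any bleomycin library (0.11), and Ctsw without any 1 of the 9 libraries other than saline 1 and 4 (0.0947). Without saline 2 and 3, 10 of the 114 rose and 11 fell, near the 9.22% and 9.97% of all genes in that fit.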

How the data were processed

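The table holds counts per gene and FPKM for 6 saline and 5 bleomycin libraries. The submitters' processing notes name FastQC, HISAT2 2.2.1, HTSeq 2.0.2 and GRCm39; neither a strand setting nor an annotation is stated in what was used here. Per the file headers, the deposited table gives a raw read count for each gene. FPKM values were made by the authors, per the file headers. Counts were tested with edgeR 4.0.16 (R 4.3.3): TMM scaling, filterByExpr with a count minimum of 10, quasi-likelihood test, two-sided, Benjamini-Hochberg adjustment, threshold 0.05. Standard errors were taken from the log2 fold change and its F value and are approximate. CPM are scaled by TMM. Total counts were 13226339 to 19009284 and the lowest member count was 103; the common biological coefficient of variation was 36.5%, so the spread between libraries, not counting, limits precision. The tests were also run on simulated counts with known changes. The spread between simulated libraries was smaller than in the data, and no pair of them stood apart. That run therefore does not cover the differences among the saline libraries seen here. No gene symbol was given for 3 genes, and 1 symbol occurred 2 times. The members, the pathway and marker lists and the alternatives that leave out saline 2 and 3 or 1 and 4 were chosen with earlier results of these data known. Values in every bleomycin library, with the lowest, median and highest saline value (all 6 for members that passed), were given for members that passed, the member of highest FPKM in each role, Tfeb, Tfe3 and the 5 largest changes that did not pass; of the other pathway genes the 12 largest changes that passed were named. Alternatives were other scalings and filters, DESeq2 1.42.0, limma 3.58.1 on log2(FPKM or TPM + 1), also with a pseudocount of 0.1, a threshold of 0.01, a replicate block and leaving out each library; TPM were computed from the deposited FPKM. The GC correction and leaving out the library pairs were added after seeing the data.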

Additional observations from a re-analysis of the deposited data

Results flagged for a closer look

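For the values in each library of the named genes and members, 112 groups were tested for a single library far from the others of its group, of which chance gives about 1 in 20 (5.6 groups); 3 were found. Ctsl was at 473 CPM in bleomycin 1, far above the other bleomycin libraries, of which the nearest was at 263 CPM. In the same library the summed alveolar macrophage markers were highest, at 1326 CPM against 525 to 703 CPM in the other bleomycin libraries, and their part in the Ctsl value was not tested. Atp6v1a was at 121 CPM in saline 6, below the other saline libraries, of which the nearest was at 174 CPM. Without saline 6, Atp6v1a was among the 6 members that fell, in a fit where 1137 of 14396 genes were lower. Cst3 was at 1249 CPM in saline 5, above the nearest saline library at 734 CPM.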

How the results depend on the processing

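The rise of Atp6v0a1 kept its direction and passed in every alternative that tested it, with a highest adjusted p of 0.0407, except at the threshold of 0.01; it was not tested when genes needed a mean FPKM of at least 5. The falls of Ppt1, Gm2a and Ctss kept their direction with all edgeR scalings but were lost with total-count scaling (adjusted p = 0.0722, 0.0509 and 0.0674) and with limma on FPKM or TPM; Ctss was also lost with the replicate block and at a mean FPKM of at least 5, and Ctss and Ppt1 with the GC correction. Psap did not pass with all libraries but passed without saline 1 and 4 and with DESeq2; Hexa passed with DESeq2, with the GC correction, without saline 1 and without saline 6.

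Members that rose and fell numbered 3 and 0 with total-count scaling, 0 and 2 at a mean FPKM of at least 5, 1 and 6 with DESeq2, 2 and 0 with limma on log2(FPKM + 1), 1 and 0 with a pseudocount of 0.1, 1 and 0 with limma on TPM, 0 and 0 at the threshold of 0.01, 2 and 4 without saline 2 and 3, and 1 and 5 without saline 1 and 4. Their median was 0.24 with limma on TPM, where the median of all genes was 0.39; total-count scaling shifted the median of all genes to 0.14 and limma with a pseudocount of 0.1 to 0.15. The other pathway genes rose and fell in numbers of 2 and 15 with median-ratio size factors, 3 and 7 with total-count scaling, 2 and 11 at a mean FPKM of at least 5, 5 and 23 with DESeq2, 3 and 6 with limma on FPKM, 3 and 7 with a pseudocount of 0.1, 4 and 1 with limma on TPM, 0 and 3 at 0.01, 10 and 11 without saline 2 and 3, 2 and 16 with the GC correction, and 4 and 14 with that correction and without saline 2 and 3. All-gene calls were 724 of only 4989 genes tested at a mean FPKM of at least 5. There, 32 members and 63 of the other pathway genes were tested. All-gene calls were 2923 of 14700 with DESeq2, 247 of 14478 at 0.01, and 2778 of 14477 without saline 2 and 3. Without saline 1 and 4 they were 876 of 14503, and with the GC correction 966 of 14478. Higher calls were 671 of 1496 in the main test, 894 of 1274 with total-count scaling, 1024 of 1373 with limma on FPKM and 1017 of 1100 with limma on TPM. Lower calls in the same order were 825, 380, 349 and 83, of 14478, 14478, 14508 and 14508 genes tested. Higher and lower calls were 702 and 814 with median-ratio size factors and 370 and 354 at a mean FPKM of at least 5. DESeq2 gave 1264 and 1659, a pseudocount of 0.1 gave 986 and 381, and 0.01 gave 113 and 134. The GC correction without saline 2 and 3 gave 663 and 967.

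With a replicate block on numbers 1 to 5, all-gene calls were 506 of 14396, with 265 higher and 241 lower. In that fit members gave 1 rise and 2 falls, and the other pathway genes 0 and 7. The numbers did not pair the libraries: deviations of same-numbered libraries correlated at 0.03, -0.20, -0.17, -0.13 and -0.02, and no saline library correlated best with its own number.

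Leaving out 1 library at a time gave 557 to 2118 calls over all genes, 1 member that rose in each case, 0 to 6 that fell, a member median of -0.41 to -0.18, and 1 to 4 rises and 5 to 23 falls among the other pathway genes. The number of members that fell was 0 without bleomycin 2, 1 without bleomycin 4 and 6 without saline 6. Over all genes, lower calls in these fits were 293 of 14537, 344 of 14538 and 1137 of 14396, so the background moved as well. Calls over all genes were 863 without saline 1 and 557, 765, 627 and 621 without bleomycin 2, 3, 4 and 5. Falls among the other pathway genes were 5, 7, 5 and 6 without bleomycin 2, 3, 4 and 5 and 23 without saline 6. Lower calls over all genes were 331 of 14540 without bleomycin 3 and 340 of 14524 without bleomycin 5. Pathway rises were 4 without saline 6 and 2 without saline 5 or bleomycin 1. Higher calls over all genes were there 981 of 14396, 531 of 14445 and 679 of 14543.

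Directions that turned were all of members that did not pass, and those below are of members with values given by library. Over all 43 members, 32 were negative in the main test, 21 without saline 2 and 3 and 10 with limma on TPM. Tfeb was at 0.0033 with total-count scaling, 0.0402 with limma on FPKM, 0.11 with a pseudocount of 0.1, 0.31 on TPM and 0.24 without saline 2 and 3, with -0.26 to 0.0411 over single libraries left out. Tfe3 was at -0.23 without saline 1 and 4 and -0.0802 with the GC correction, with -0.10 to 0.25 over single libraries. Ids was at -0.14 without saline 2 and 3, with -0.0781 to 0.12 over single libraries. Gla was at 0.25 without saline 2 and 3 and 0.40 with the GC correction as well; under the latter, Ctsc was at 0.12 and Asah1 at 0.18. On TPM, Asah1 was at 0.24, Lamp1 at 0.30 and Atp6ap1 at 0.32. The cause of these changes was not tested.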

Other observations

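Among the 43 members, 2 pairs are neighbouring coding genes on GRCm38.p6: Atp6v0a1 with Naglu, and Ctsk with Ctss. Atp6v0a1 rose while Naglu, a glycosidase of heparan sulfate, was at -0.29 on the log2 scale and did not pass. Ctsk was at -0.49 where Ctss was at -2.79. No explanation was tested for either pair.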
